A study of Homo sapiens with 12 samples.

Results

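IL1RL1, the receptor for interleukin-33, was described together with IL1R1, IL1RAP, IL33 and IL1RN, 5 of the 22257 genes in the count tables. The group was chosen by the IL1RL1 counts of these libraries, which were far lower at 10 mM than at 1 mM glucose. The contrasts with 10 mM glucose are therefore a description for these 5 genes, with no test. Both transcript rows of IL1RL1 were used. IL1R1, IL1RAP, IL33 and IL1RN were each read from the transcript row that the authors had marked as best. The RNA was extracted from LN229 (a human glioblastoma line in long use), grown to 80% confluence and kept for 24 hours in RPMI medium with 10% dialyzed serum. All 3 groups share this line, medium and serum. They differ in the carbon source, which was glucose at 1 mM alone, glucose at 1 mM plus acetate at 5 mM, or glucose at 10 mM, with 4 libraries each. Whether replicates were grown separately is not in the labels, so a p here is about library-to-library spread, which may be technical.

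Receptors of the interleukin-1 family sit in the cell membrane and signal in pairs. A ligand binds its own receptor, IL1R1 for the cytokines IL1A and IL1B or IL1RL1 (also called ST2) for IL33, and the shared co-receptor IL1RAP then joins. The pair recruits MYD88 and IRAK kinases and activates NF-kB. IL1RN is a natural antagonist that occupies IL1R1 without signalling. IL33 is an alarmin kept in the nucleus and released from damaged cells, and astrocytes and oligodendrocytes are among its sources in the brain. IL1RL1 is best known from mast cells and type 2 lymphoid cells, and was also found as a gene induced by growth stimulation of fibroblasts. Its transcripts differ at both ends. NM_003856 encodes the soluble form, which holds IL33 away from cells, and NM_016232 encodes the membrane receptor.

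The 2 rows of IL1RL1 have separate start sites, and the sequence around each start is shown because these rows carry the main result. In RefSeq on GRCh38.p14 the distal window is chr2:102311313-102311612 and the proximal window chr2:102337007-102337306, both on the plus strand, from 250 bases before to 50 after the start. The GENCODE v29 transcript matched to NM_016232 starts in the distal window and the one matched to NM_003856 in the proximal window. Capitals mark matches to 4 motifs searched on both strands.
IL1RL1 distal start: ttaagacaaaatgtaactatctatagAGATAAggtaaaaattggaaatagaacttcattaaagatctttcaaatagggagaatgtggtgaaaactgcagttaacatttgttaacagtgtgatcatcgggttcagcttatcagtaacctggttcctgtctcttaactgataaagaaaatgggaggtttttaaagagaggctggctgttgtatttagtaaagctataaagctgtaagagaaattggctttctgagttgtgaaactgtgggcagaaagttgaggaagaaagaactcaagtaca
IL1RL1 proximal start: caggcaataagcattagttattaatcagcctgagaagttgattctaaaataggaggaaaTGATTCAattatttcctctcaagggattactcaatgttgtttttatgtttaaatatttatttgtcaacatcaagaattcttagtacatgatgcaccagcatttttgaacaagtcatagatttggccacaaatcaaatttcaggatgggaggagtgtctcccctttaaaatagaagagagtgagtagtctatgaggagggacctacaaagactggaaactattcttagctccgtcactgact

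The letters searched for AP-1 were TGANTCA. For the composite site of C/EBP and ATF factors they were TGATGNAA. For GATA factors they were AGATAA, and the NF-kB consensus was the remaining motif. The proximal window held 1 match to the AP-1 letters, 191 bases before the RefSeq start and readable on both strands at that place. The distal window held 1 match to the GATA letters, 224 bases before the RefSeq start. The matched GENCODE v29 transcripts start upstream of the RefSeq starts, at 102337148 (proximal) and 102311502 (distal). Both matches therefore lie closer to the GENCODE starts than these distances. Other letters that these factors may bind were not searched. Among 35116 promoter windows of this length, 7.71% held the AP-1 letters, 10.3% the GATA letters, 3.62% the composite site and 5.91% the NF-kB consensus. The AP-1 and GATA matches lie in different windows, so none overlap. Both IL1RL1 windows were poor in G and C, at 35.0% (distal) and 35.7% (proximal), against a median of 58.7% over all windows. Each held 1 CpG, against a median of 14, and 24.5% of all windows held at most 3. These matches describe letters only, and binding was not measured.

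Total counts per library, with 1 row per gene, ran from 25309508 to 26698438 at 1 mM glucose, 26780316 to 27183718 with acetate and 24412954 to 26016289 at 10 mM glucose. The common biological coefficient of variation was 8.51%. On the principal component that held 8.35% of the variance, replicate 3 at 1 mM glucose (31.4) and replicate 1 with acetate (14.9) lay apart from the other 10 libraries (−17.1 to 7.2). Levels here are counts per 1000000 counts of the library (CPM) scaled by the TMM method. TXNIP, a gene induced by glucose, had a mean level of 6.63 CPM in the 1 mM libraries and of 121 CPM in the 10 mM libraries. Among 8 glioma and astrocyte markers VIM, CD44 and NES were abundant, while GFAP averaged 0.848 to 1.14 CPM and AQP4 0.0474 to 0.129 CPM in the 3 groups. SOX9 averaged 0.302 to 0.635 CPM. At 1 mM, with acetate and at 10 mM, NES averaged 452, 492 and 1053 CPM. In the same order S100B averaged 86.6, 121 and 186 CPM, and SOX2 14.3, 17.7 and 75.4 CPM. Of 7 tested markers in this list, 3 were higher and 2 lower at 10 mM than at 1 mM glucose, beside 33.7% and 33.8% of all tested genes. Of 10 mast cell and lymphoid markers, TPSAB1, TPSB2 and MS4A2 had 0 counts in every library. PTPRC reached at most 0.447 CPM as a group mean. KIT averaged 0.414 CPM at 1 mM, 0.369 CPM with acetate and 0.571 CPM at 10 mM. Of the 10 markers, 6 had at most 3 counts in every library. Apart from GATA3, no marker of the list exceeded 0.571 CPM as a group mean. GATA3, a transcription factor of type 2 lymphoid cells, was the exception in that list. Its level was 30.7 ± 1.87 CPM at 1 mM, 28.1 ± 1.38 CPM in acetate libraries and 9.2 ± 0.476 CPM at 10 mM (SD, n = 4). Its fall at 10 mM had a log2 fold change of −1.74 ± 0.07 (SE, edgeR adjusted p = 1.65e-11). The summed level of the list ran from 29.2 to 33.1 CPM at 1 mM, 27.4 to 30.6 CPM with acetate and 9.58 to 10.3 CPM at 10 mM, and its part in the IL1RL1 result was not tested.

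IL1RL1 was abundant at 1 mM glucose, lower with acetate, and close to absent at 10 mM glucose. The row of the soluble form had 126, 101, 81.5 and 102 CPM in replicates 1 to 4 at 1 mM glucose. With acetate it had 68.3, 74.6, 70.9 and 53.8 CPM. At 10 mM glucose it had 0.464, 0.726, 0.693 and 0.655 CPM, from 12 to 20 counts per library. No library of any group overlapped another group, as in 61.0% of all tested genes for 10 mM against acetate (30.1% lower at 10 mM), and the highest acetate library lay below the lowest 1 mM library. In RNA from whole cultures, fewer cells that express a gene and less RNA per cell cannot be told apart.

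The mean of the soluble row was 103 ± 18.1 CPM at 1 mM, 66.9 ± 9.1 CPM with acetate and 0.634 ± 0.117 CPM at 10 mM (SD, n = 4). The mean at 1 mM was 162-fold that at 10 mM, and the mean with acetate was 105-fold that at 10 mM. On the log2 scale the fitted difference of 10 mM minus 1 mM was −7.32 ± 0.19 (SE), and 1 of the 14416 tested genes had a larger fall. For 10 mM minus acetate it was −6.70 ± 0.19, and 0 genes had a larger fall. Of all tested genes 62.8% were called in that comparison, 31.0% higher and 31.8% lower. These comparisons share libraries with the choice of the gene, so they describe it and are no test of it.

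**Figure D1:**
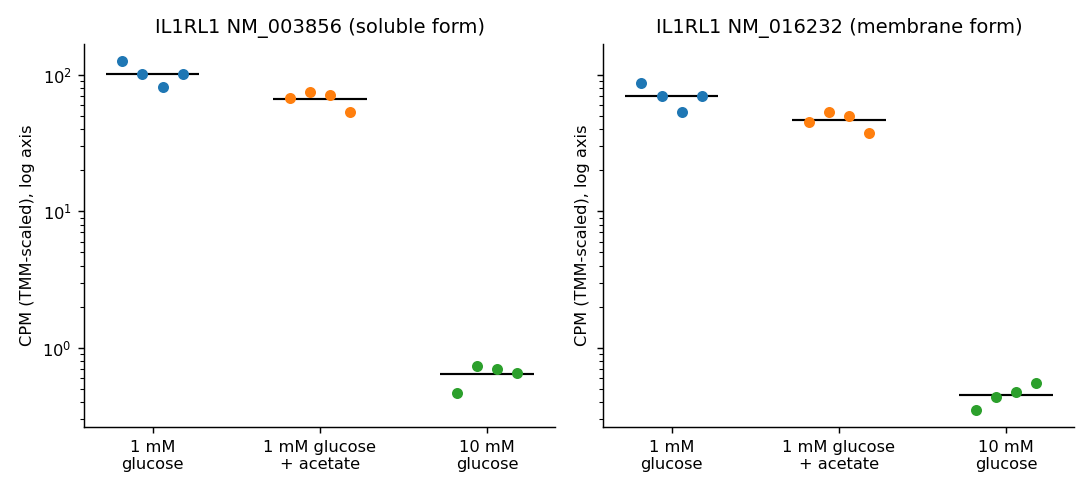
Levels of the 2 IL1RL1 transcript rows in each library, in TMM-scaled CPM on a log axis. Points are libraries and lines are group means (n = 4). Both rows step down slightly with acetate and lie under 1 CPM in every library at 10 mM glucose.

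Acetate against 1 mM glucose was not the contrast that chose the genes, but it shares the 1 mM libraries with that choice. A 1 mM group that was high through library spread would favour a fall with acetate, so the p below carries that limit. IL1RL1 fell with acetate by 34.8% in mean CPM, and the groups did not overlap, which held for 15.6% of all tested genes (8.2% lower with acetate). The log2 fold change was −0.62 ± 0.12 (SE, 95% interval −0.87 to −0.37, edgeR quasi-likelihood test, adjusted p = 0.00333 over 14416 genes). Of the 3 members that passed the filter on low counts, 1 was called, IL1RL1, and 13.7% of all tested genes were called in this comparison, 7.09% as lower. Without replicate 3 at 1 mM and replicate 1 with acetate, the libraries that lay apart, it was −0.72 with adjusted p = 8.04e-06. The call held in all 21 alternatives run for it, with values from −0.72 to −0.51. The decrease with acetate left IL1RL1 far above its level at 10 mM glucose.

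The membrane row of IL1RL1 followed the same order. It had 87.3, 69.9, 53.8 and 69.7 CPM at 1 mM glucose, 45.1, 53.5, 49.9 and 37.3 CPM with acetate, and 0.348, 0.436, 0.474 and 0.546 CPM at 10 mM glucose, by replicate. The groups again did not overlap, although replicate 3 at 1 mM (53.8) and replicate 2 with acetate (53.5) nearly met. The acetate effect in a fit of all transcript rows was −0.59 ± 0.13 on the log2 scale (SE, edgeR adjusted p = 0.00664 over 24528 rows, of which 14.4% were called), beside −0.62 ± 0.12 for the soluble row in that fit. For this row the mean at 1 mM was 156-fold that at 10 mM glucose.

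The rows are not independent measurements. In 24.1% of the 6548 genes with several counted rows, at least 2 rows had identical counts in all 12 libraries, as NM_001199640 and NM_033439 of IL33 did. A read in a shared exon may therefore have been counted for each row. The GENCODE v29 transcripts matched to the 2 IL1RL1 rows share 1119 bases, which is 28% of the soluble and 54.4% of the membrane transcript. The soluble row always had the higher count, 3090 against 2143 in replicate 1 at 1 mM glucose and 18 against 15 in replicate 4 at 10 mM glucose.

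The ratio of the soluble to the membrane row was 1.47 ± 0.0333 at 1 mM, 1.44 ± 0.0527 with acetate and 1.42 ± 0.199 at 10 mM (SD, n = 4). Acetate minus 1 mM differed by −0.03 on the log2 scale, less than the spread between libraries (exact two-sided permutation test, p = 0.429, where the smallest possible p is 0.0286). At 10 mM the ratio ran from 1.2 to 1.67 on 9 to 20 counts, too few to resolve a shift between the rows.

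**Figure D2:**
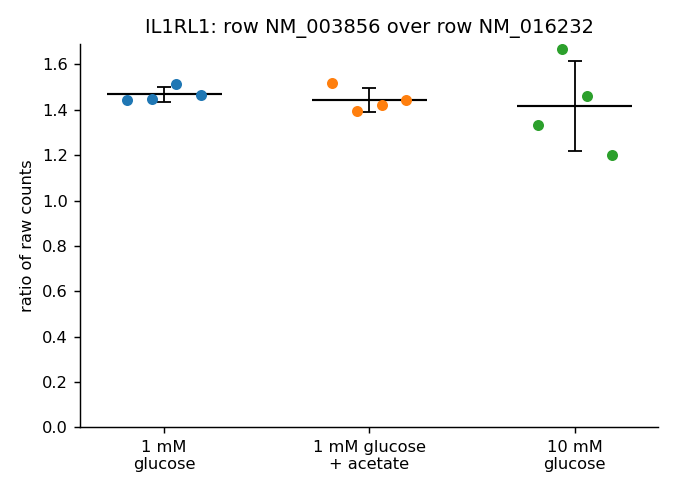
Ratio of the raw counts of the soluble row to the membrane row of IL1RL1 in each library. Points are libraries, and lines with bars are the group mean and SD (n = 4). The means are 1.47, 1.44 and 1.42, and the spread is widest at 10 mM glucose, where counts are low.

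The other receptor subunits were lower at 10 mM glucose by much smaller steps. IL1RAP, the co-receptor that IL1RL1 and IL1R1 share, had 122, 134, 94.7 and 116 CPM at 1 mM glucose. With acetate it had 104, 118, 117 and 112 CPM, and at 10 mM glucose 50.6, 55.3, 53.2 and 54.0 CPM. The 1 mM and acetate libraries overlapped, and all 8 lay above the 10 mM libraries. The 1 mM mean was 2.19-fold the 10 mM mean, a fitted log2 difference of −1.13 ± 0.09 (SE). With acetate the log2 fold change was −0.05 ± 0.08 (SE, 95% interval −0.23 to 0.13, edgeR adjusted p = 0.745).

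IL1R1, the receptor for IL1A and IL1B, had 37.0, 37.8, 31.9 and 34.3 CPM at 1 mM glucose. It had 29.5, 36.2, 34.0 and 34.1 CPM with acetate and 23.8, 24.2, 25.5 and 25.3 CPM at 10 mM glucose. Here too the 1 mM and acetate libraries overlapped and the 10 mM libraries lay below both. The 1 mM mean was 1.43-fold the 10 mM mean, a fitted log2 difference of −0.51 ± 0.07 (SE). With acetate the log2 fold change was −0.08 ± 0.07 (95% interval −0.23 to 0.08, edgeR adjusted p = 0.524). The difference between these genes and IL1RL1 in their acetate effect was not tested. Groups at 10 mM and 1 mM glucose did not overlap in 61.5% of all tested genes (30.3% lower at 10 mM), and the choice used this contrast, so nothing is read from the separation of IL1R1, IL1RAP and IL1RL1. Replicate 3 was the lowest of the 1 mM libraries for IL1RL1, IL1RAP and IL1R1 alike.

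IL1RAP also has a soluble form, NM_134470. Its row had 0.367 ± 0.0269 of the count of the membrane row NM_002182 at 1 mM, 0.401 ± 0.0262 with acetate and 0.363 ± 0.011 at 10 mM (SD, n = 4). The libraries that lay apart held the lowest ratio of their groups, 0.333 for replicate 3 at 1 mM and 0.364 for replicate 1 with acetate. A read in an exon that the rows share may have been counted for each, so this ratio does not measure the soluble form alone. Another IL1RAP row, NM_001167931, which ends beyond the soluble row, had similar ratios to NM_002182. They were 0.384 ± 0.0441 at 1 mM, 0.415 ± 0.0482 with acetate and 0.407 ± 0.0046 at 10 mM.

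The ligand and the antagonist were near the limit of detection. IL33 had 2, 0, 2 and 0 counts at 1 mM glucose, 2 counts in each acetate library, and 10, 3, 6 and 7 counts at 10 mM glucose. Summed over libraries this is 0.0387 CPM (95% Poisson interval 0.0105 to 0.0991), 0.0742 CPM (0.032 to 0.146) and 0.254 CPM (0.166 to 0.372). These sums use library totals without TMM scaling, and the intervals cover counting error only. The order of these sums was opposite to that of its receptor, at 4 to 26 counts per group. The intervals at 1 mM and with acetate overlap, so the order of those groups is not resolved. IL1RN had 1 count in replicate 3 at 1 mM, 1 in replicate 4 with acetate and 0 in the other 10 libraries. A count of 0 allows up to 0.11 to 0.123 CPM, also without TMM scaling, depending on the library. IL33 and IL1RN did not pass the filter, and no change in IL1RN was detectable at this depth.

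Levels of different genes can be compared only per length, and the lengths used here are those of the matched GENCODE v29 transcripts, which may differ from the authors' models. At 1 mM glucose IL1R1 had 6.85 ± 0.526 CPM per kilobase, the IL1RL1 rows 25.7 ± 4.54 (soluble) and 34.1 ± 6.64 (membrane), and IL1RAP 52.0 ± 7.29 by its marked row but 24.4 ± 3.42 by NM_002182 (SD, n = 4). IL1R1 was below the others, and the order of IL1RL1 and IL1RAP depended on the row. At 10 mM glucose the order changed, with IL1RL1 at 0.159 ± 0.0293 (soluble) and 0.219 ± 0.04 (membrane), IL1R1 at 4.8 ± 0.159 and IL1RAP at 23.7 ± 0.89 by its marked row or 11.2 ± 0.417 by NM_002182.

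IL1RL1 lies in a cluster of receptor genes on chromosome 2, and its neighbours IL18R1 and IL18RAP, the subunits of the interleukin-18 receptor, were also lower at 10 mM glucose. IL18R1 had 71.8, 73.3, 49.8 and 68.1 CPM at 1 mM, 57.0, 57.2, 60.9 and 55.6 CPM with acetate, and 10.1, 10.7, 11 and 10.5 CPM at 10 mM glucose. Every 10 mM library lay below all others, and IL18R1 fell by 2.63 ± 0.11 on the log2 scale (SE, edgeR adjusted p = 2.62e-11). IL18RAP averaged 1.82 ± 0.36 CPM at 1 mM, 1.21 ± 0.202 CPM with acetate and 0.167 ± 0.0248 CPM at 10 mM (SD, n = 4). It fell by 3.41 ± 0.25 on the log2 scale at 10 mM (adjusted p = 1.86e-08). The 10 mM libraries held only 5, 4, 4 and 5 counts of IL18RAP, close to the limit of detection.

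With acetate IL18RAP fell by 0.59 ± 0.17 on the log2 scale (SE, edgeR adjusted p = 0.0334). That call ended with the DESeq2 Wald test, with only the 8 libraries compared, and without replicate 1, 2 or 4 at 1 mM or replicate 3 or 4 with acetate, with adjusted p from 0.0561 to 0.104 in these. Over all its alternatives the adjusted p ran from 0.00494 to 0.104. IL18R1 did not pass for acetate (−0.19 ± 0.09, adjusted p = 0.207), but passed without replicate 3 at 1 mM (−0.30, adjusted p = 0.00122) and without that library and replicate 1 with acetate (−0.295, adjusted p = 0.000341). The decoy receptor IL1R2 had mean levels of 0.404 CPM (1 mM) and 0.279 CPM (10 mM) and did not pass (−0.54 ± 0.32, adjusted p = 0.154). MAP4K4, a kinase gene at the edge of this cluster, was abundant and did not pass either (726 ± 55.6 and 689 ± 13.7 CPM, −0.08, adjusted p = 0.407). IL1RL2 and SLC9A4 were too low to test. Besides IL1RL1 and IL1R1, 2 of 4 tested cluster genes fell at 10 mM and 0 rose, beside 33.8% lower and 33.7% higher of all tested genes.

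**Figure D3:**
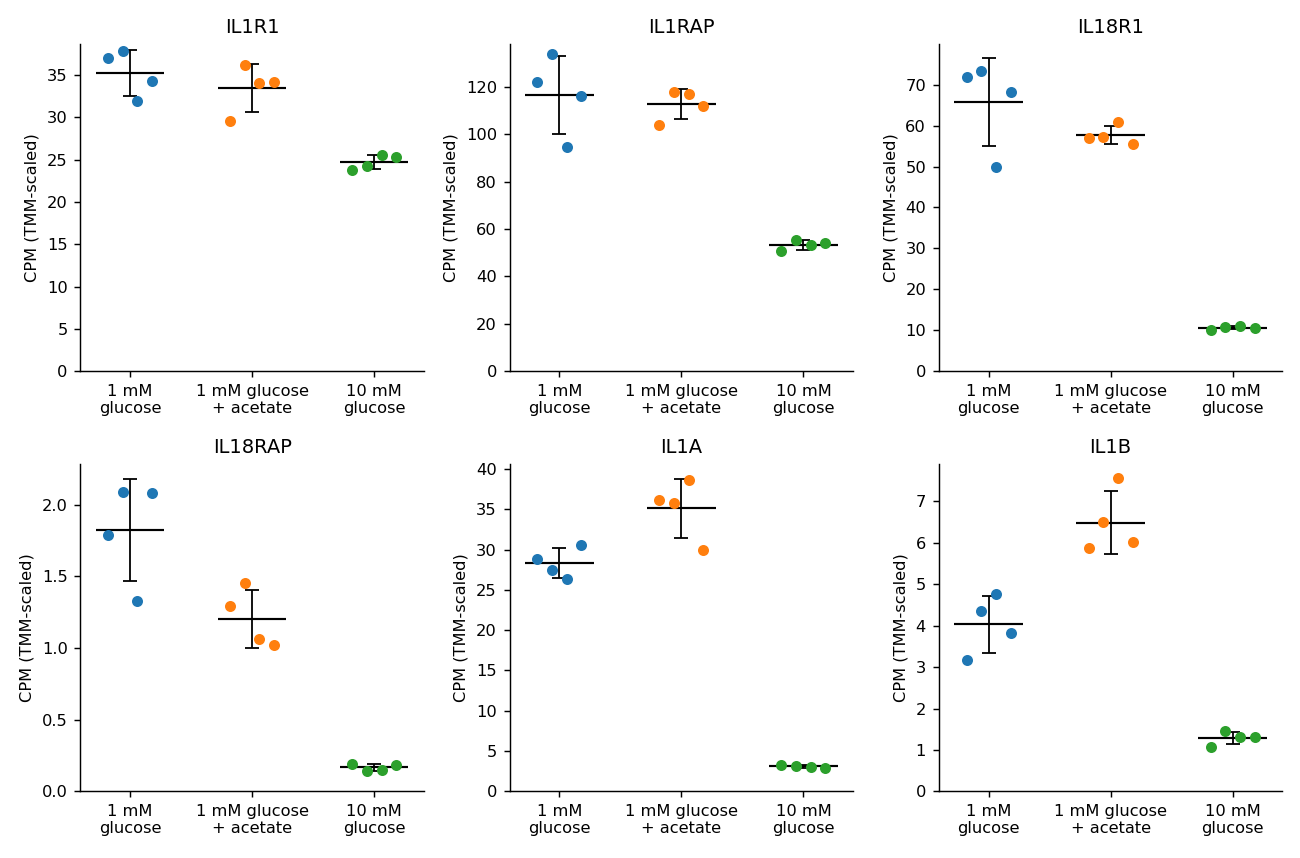
Levels of 2 members (IL1R1, IL1RAP) and of 4 other genes of the interleukin-1 family in each library, in TMM-scaled CPM from 0. Points are libraries, and lines with bars are the group mean and SD (n = 4). All 6 genes are lowest at 10 mM glucose, and IL1A and IL1B are highest with acetate.

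Among the ligands of IL1R1, both tested cytokines moved with acetate in the direction opposite to IL1RL1. IL1A had 28.8, 27.5, 26.4 and 30.6 CPM at 1 mM glucose, 36.1, 35.8, 38.6 and 29.9 CPM with acetate, and 3.25, 3.16, 3.06 and 2.91 CPM at 10 mM glucose. Replicate 4 with acetate lay within the range of the 1 mM libraries, and every 10 mM library lay far below both groups. IL1A rose with acetate by 0.31 ± 0.08 on the log2 scale (SE, edgeR adjusted p = 0.0145). That call ended without replicate 3 with acetate (0.0526) and with only the 8 libraries compared (0.0515), over alternatives of 0.00316 to 0.0526. At 10 mM glucose IL1A fell by 3.19 ± 0.09 on the log2 scale (adjusted p = 1.14e-12).

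IL1B had 3.18, 4.35, 4.76 and 3.83 CPM at 1 mM glucose, 5.88, 6.49, 7.57 and 6.01 CPM with acetate, and 1.08, 1.45, 1.31 and 1.31 CPM at 10 mM glucose. None of the groups overlapped. IL1B rose with acetate by 0.68 ± 0.12 (SE, edgeR adjusted p = 0.00244) and fell at 10 mM by 1.64 ± 0.16 on the log2 scale (adjusted p = 3.01e-07). Against acetate, the 10 mM level was lower by −3.50 ± 0.09 for IL1A and −2.32 ± 0.15 for IL1B (adjusted p = 6.48e-13 and 4.79e-09). IL37, an anti-inflammatory ligand, stayed at 0.442 to 0.676 CPM as group means and did not pass in either comparison. The other 6 ligands and antagonists listed were not tested, with at most 8 counts in any library.

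The remaining receptors and decoys gave smaller differences between 10 mM and 1 mM glucose. IL18BP, which neutralises interleukin-18, rose at 10 mM glucose from 3.91 ± 1.14 to 5.94 ± 0.978 CPM (SD, n = 4, log2 fold change 0.60 ± 0.22, edgeR adjusted p = 0.0233). The call ended without replicate 3 or 4 at 1 mM or replicate 1 or 2 at 10 mM (0.0556 to 0.0736, over alternatives of 0.0064 to 0.0736). SIGIRR, an inhibitory family receptor, had mean levels of 16.1 CPM (1 mM) and 19 CPM (10 mM) and did not pass (0.24 ± 0.12, adjusted p = 0.0946). It passed without replicate 3 at 1 mM (0.38, adjusted p = 0.00384) and with library totals as scaling (0.0131). IL1RAPL1, a synaptic relative of IL1RAP, had −0.24 ± 0.22 (adjusted p = 0.351), and passed without replicate 3 at 1 mM (−0.44, adjusted p = 0.0302). With acetate SIGIRR averaged 14.8 CPM, IL1RAPL1 4.96 CPM and IL1R2 0.518 CPM, and each passed for 10 mM glucose against acetate. The log2 fold changes were 0.36 ± 0.12 (SE, edgeR adjusted p = 0.0192), −0.53 ± 0.21 (0.0394) and −0.89 ± 0.30 (0.0181, at most 17 counts per library). IL18BP did not pass there (0.095). Of 6 tested receptors and decoys outside the members, 1 was higher and 4 lower, beside 31.0% and 31.8% of all tested genes.

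Downstream of the receptors the signalling genes were split. Of 20 tested genes, 8 rose and 8 fell at 10 mM glucose, with a median log2 fold change of −0.04 beside 0.00 over all genes, of which 67.5% were called. The adaptor MYD88 rose from 25.8 ± 1.7 to 42.1 ± 3.0 CPM (log2 0.71 ± 0.06, edgeR adjusted p = 1.65e-07), and the ubiquitin ligase PELI3 rose by 0.75. The kinase IRAK2 fell from 18.9 ± 1.84 to 8.48 ± 0.143 CPM (log2 −1.16 ± 0.08, adjusted p = 1.47e-08). With acetate 0 rose and 4 fell, beside 6.65% higher and 7.09% lower of all genes. IRAK2 fell by 0.34 on the log2 scale (adjusted p = 0.012), as did TOLLIP, which restrains this pathway, by 0.29 (0.00537) and the kinase MAP3K3 by 0.20 (0.019). The IRAK2 call ended with only the 8 libraries compared (0.0581), and the MAP3K3 call there (0.0903) and without replicate 1 at 1 mM (0.0645) or replicate 3 with acetate (0.0501).

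Genes that process the ligands or turn over the receptor were called near the background, with 6 of 15 higher and 5 lower at 10 mM glucose (median −0.03), beside 33.7% higher and 33.8% lower of all genes. FBXL19, a subunit of a ubiquitin ligase that marks the IL1RL1 protein for degradation, rose from 19 ± 1.87 to 39.7 ± 0.965 CPM (SD, n = 4, log2 1.06 ± 0.07, edgeR adjusted p = 4.62e-09). The inflammasome sensor NLRP3 fell from 3.08 ± 0.388 to 0.656 ± 0.297 CPM (log2 −2.22 ± 0.21, adjusted p = 3.5e-07). FBXL19 was picked after its values had been seen, as NLRP3 was at first. AIM2, a sensor of cytosolic DNA, rose from 0.401 ± 0.179 to 4.85 ± 0.292 CPM (log2 3.57 ± 0.22, adjusted p = 2.76e-09). The protease CASP4 fell by 1.41 and CAPN2, a calpain subunit, by 0.70 on the log2 scale.

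With acetate 1 of these 15 genes rose, CASP8 (log2 0.26, edgeR adjusted p = 0.00332), and 2 fell, beside 6.65% higher and 7.09% lower of all genes. CAPN2 fell by 0.22 (adjusted p = 0.00418) and NLRP3 by 0.69 on the log2 scale (0.0193). The NLRP3 call ended without replicate 4 at 1 mM (0.0665) or replicate 3 or 4 with acetate (0.0506, 0.0504).

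Known NF-kB targets of this pathway were mostly lower at 10 mM glucose, with 11 of 14 tested genes lower and 1 higher (median −1.37), beside 33.8% and 33.7% of all genes. The cyclooxygenase PTGS2 fell from 112 ± 20.2 to 9.01 ± 0.692 CPM, the chemokine IL8 (now CXCL8) from 193 ± 18.1 to 34.7 ± 6.14 CPM, and the NF-kB cofactor NFKBIZ from 92.8 ± 11.2 to 25.7 ± 1.64 CPM (SD, n = 4). Their edgeR adjusted p were 1.3e-11, 9.81e-11 and 1.91e-10. With acetate the same list was divided, with 5 higher and 4 lower (median 0.09), beside 6.65% higher and 7.09% lower of all genes. NFKBIZ fell to 60.1 ± 4.83 CPM (log2 −0.63 ± 0.09, adjusted p = 0.000334), PTGS2 to 76.2 ± 9.09 CPM (−0.56 ± 0.12, 0.00619) and the RNase ZC3H12A by 0.56 on the log2 scale (0.000702). LIF, a cytokine of the interleukin-6 family, rose from 446 ± 45.8 to 667 ± 61.0 CPM (0.58 ± 0.08, 0.0005), and IL8 rose to 255 ± 20.0 CPM (0.40 ± 0.10, 0.0195). The IL8 call ended without replicate 1 at 1 mM (0.0677) or replicate 2 or 3 with acetate (0.0589, 0.0564).

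**Figure D4:**
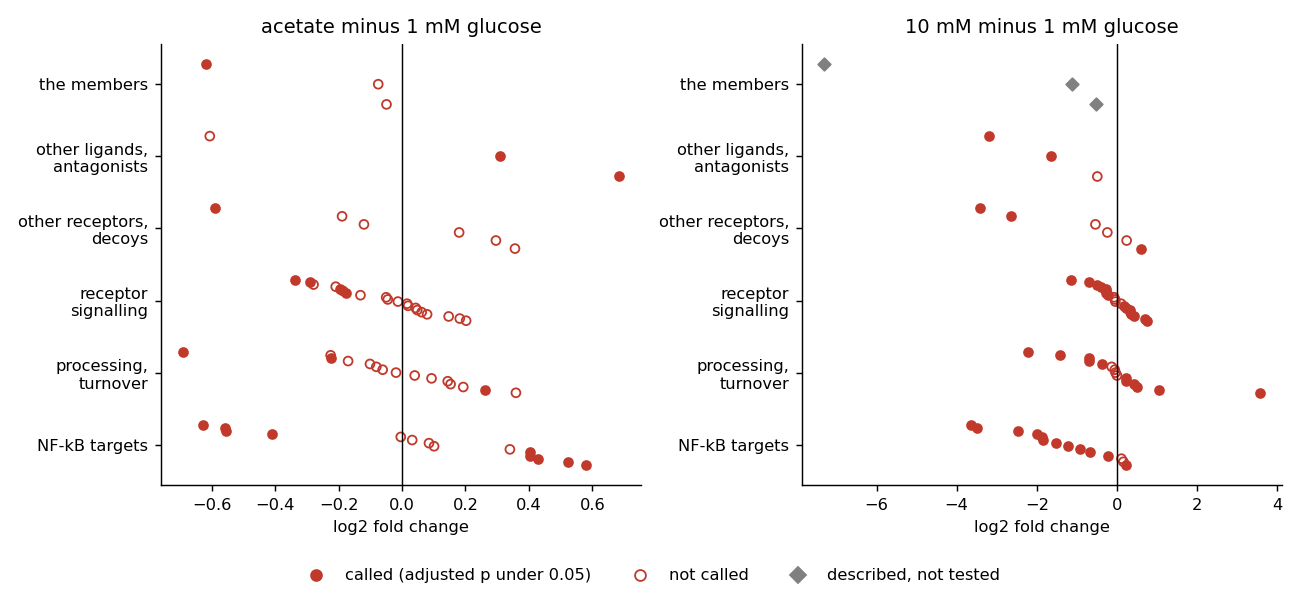
Log2 fold changes of the tested genes of each list for acetate minus 1 mM glucose (left) and 10 mM minus 1 mM glucose (right), on separate axes. Each symbol is a gene, filled where called, open where not, and a grey diamond for the members at 10 mM glucose, which are described and not tested. IL1RL1 lies farthest left on the right panel, at −7.32.

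The genes whose levels followed IL1RL1 most closely over the 12 libraries, by Pearson correlation of log2 CPM among 11189 genes averaging at least 5 CPM, were BDNF (0.999), HSPA9 (0.999), VEGFA (0.999), TMEM39A (0.998) and IFRD1 (0.998). The libraries share the 3 conditions, and 10.8% of these genes had a correlation above 0.95, so such values are common here. Within groups, after each group's mean was taken off, the correlations of the 5 were 0.655 to 0.822. The 5 were picked on a correlation that includes these deviations, and the within-group values of all genes are not given. Nothing is read from them. IL1RAP had 0.981 and IL1R1 0.938 over the 12 libraries, and 0.569 and 0.432 within groups. BDNF, a neurotrophin, averaged 19.2 ± 1.54 CPM at 1 mM, 16.4 ± 0.835 CPM with acetate and 3.3 ± 0.133 CPM at 10 mM (SD, n = 4). The angiogenic factor VEGFA averaged 315 ± 19.5, 281 ± 11.7 and 50.8 ± 1.37 CPM. The fitted falls of these 5 genes at 10 mM, from −1.23 for TMEM39A to −2.63 for VEGFA on the log2 scale, were smaller than the −7.32 of IL1RL1.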

How the data were processed

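RNA of 12 LN229 libraries was sequenced, 4 per group. The authors deposited raw counts per RefSeq transcript as whole numbers, 34917 rows per library, and a column marking 1 transcript of most genes. The build is hg19, per the submitters' processing notes. Which aligner, counting program and strand setting were used is not given in the sources used here. The members, gene lists and tests were chosen with earlier results of these data known.

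Each gene was read from its marked row (20895 genes) or from the row with the highest total. All 12 libraries entered 1 edgeR fit (version 4.0.16, R 4.3.3), after filterByExpr and scaling by TMM, tested by quasi-likelihood with Benjamini-Hochberg adjustment over 14416 genes, and called at an adjusted p under 0.05. SE were taken from the F statistic. All transcript rows were fitted the same way. The fit was tested on simulated data. The IL1RL1 row ratio used raw counts plus 0.5 and an exact permutation test, with the row of the shorter protein above that of the longer. DESeq2 1.42.0 served as an alternative. In the list of processing and turnover genes, 1 gene is not reported here and is left out of the list's counts. From each list the 3 tested genes with the smallest p for 10 mM glucose and for acetate were eligible to be named, with all tested family ligands and receptors. FBXL19 and MAP4K4, and markers given as levels, fall outside this rule and were picked after their values were seen. NLRP3 was picked in the same way and meets the rule only with the unreported gene left out. Lengths came from GENCODE v29 and promoters from RefSeq (GRCh38.p14), a different build from that of the counts.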

Additional observations from a re-analysis of the deposited data

Results flagged for a closer look

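A library was far from the rest of its group of 4, by Dixon's test at 95%, in 3 of the 147 gene and group pairs checked, and chance alone gives about 1 in 20. CAPN2 had 579 CPM in replicate 4 with acetate against 540 to 546 CPM in the other acetate libraries. In that same library IL8 had 225 CPM against 262 to 268 CPM. CASP4 had 5.29 CPM in replicate 3 at 10 mM glucose against 5.88 to 6.0 CPM. None of the flagged values belongs to IL1RL1, IL1R1, IL1RAP or IL33.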

How the results depend on the processing

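The acetate call of IL1RL1 kept its direction and its side of the threshold under all 21 alternatives (adjusted p 8.04e-06 to 0.0221), and its 10 mM difference stayed between −7.42 and −7.18. IL1R1 and IL1RAP stayed uncalled for acetate under all 21. Acetate called 1980 genes, 1056 with only the 8 libraries compared and 3728 without replicate 3 at 1 mM and replicate 1 with acetate, a choice made after seeing the data. Leaving out 1 library gave 1196 to 2956 genes and, for transcript rows (3535 called), 2230 to 5086. The cause was not tested. With library totals the acetate calls split 1376 higher and 734 lower in place of 958 and 1022, and the 10 mM calls 6241 and 3611 in place of 4854 and 4871, as the median over all genes shifted by 0.038 and 0.142 on the log2 scale. For 10 mM against acetate they split 5563 and 3586 in place of 4471 and 4578, with a shift of 0.103. IL1R1 then had −0.37 and IL1RAP −0.99 at 10 mM. Small uncalled acetate values changed sign, the cause not tested: IL1RAP to 0.023 without 1 mM replicate 2 (range on leaving out libraries −0.137 to 0.023), AIM2 to −0.056 without acetate replicate 2 (−0.056 to 0.572), SIGIRR to 0.021 without 1 mM replicate 3 (−0.208 to 0.021), and KIT to 0.025 without 1 mM replicate 2, 0.136 without acetate replicate 1 and 0.203 without both libraries that lay apart (−0.392 to 0.203). The correlation of deviations between same-numbered libraries ran from −0.365 to 0.27. For 10 mM against 1 mM glucose it was 0.064 to 0.27, each value above the best with another number (−0.033 to 0.079). For acetate against 1 mM glucose only replicate 2 lay above it (0.128 against 0.058). For 10 mM glucose against acetate every value (−0.114 to 0.024) lay below it. With the replicate block 1780 genes were called for acetate, IL1RL1 had −0.61 (adjusted p = 0.00712), and the row ratio had −0.03 (p = 0.5, exact sign-flip permutation). With 4 pairs this permutation cannot give a p under 0.05, so it decides nothing about the ratio. Counts of 9 to 20 limit the IL1RL1 row ratio at 10 mM, and counts of 0 to 10 limit IL33.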
